A study of Mus musculus with 16 samples.

Results

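The troponin genes encode the calcium switch of the muscle thin filament. All 8 mouse genes for troponin C, troponin I and troponin T were taken by name from a table of 35275 genes: Tnnc1, Tnnc2, Tnni1, Tnni2, Tnni3, Tnnt1, Tnnt2 and Tnnt3. Each was present as 1 protein-coding gene, with coordinates identical to its GENCODE release M21 span on GRCm38. They were measured by RNA-seq of poly(A)-selected RNA in C2C12, a long-established line of mouse myoblasts, PAX7 negative here, whose cells fuse into myotubes once serum is lowered.

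Control cells labelled wild type came as 2 populations, called control lines 1 and 2. Cells lacking miR-206 together with both copies of miR-1a (miR-1a-1 as well as miR-1a-2), the triple knockout or tKO, came as 2 clones, so each tKO line descends from 1 clone. Sampling took place in growth medium (GM, 20% fetal bovine serum, near 80% confluence) and after 3 days in 2% horse serum (DM3), with 2 cultures of every line per stage, BR1 and BR2. This gives 2 growth groups (control GM, tKO GM) and 2 differentiation groups (control DM3, tKO DM3) of 4 libraries. The labels name no agent other than the change of serum.

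Troponin C binds calcium, troponin I holds the myosin sites of actin blocked at rest, and troponin T ties the complex to tropomyosin. Each subunit has its own genes for fibre types: Tnni1 and Tnnt1 for slow fibres, Tnni2, Tnnt3 and Tnnc2 for fast fibres, Tnni3 and Tnnt2 for the heart, and Tnnc1 for slow fibres and the heart. In developing and regenerating skeletal muscle the cardiac and slow forms, Tnnt2 among them, are known to be made before the adult pattern settles. miR-1 and miR-206 are muscle microRNAs with a common seed, and they act by pairing with sites in the 3′ ends of messenger RNAs.

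The mature miR-206-3p of RefSeq (GRCm38.p6, chr1:20679055-20679076, + strand) is shown because its seed, bases 2 to 8 in capitals, sets what a target site looks like.
miR-206-3p: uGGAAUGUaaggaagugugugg
The letters that pair with this seed are ACATTCC, and CATTCC where the pairing stops 1 base short of the seed's 3′ end. In the longest annotated 3′ UTR of each troponin gene in GENCODE M21 (63 to 379 bases), 0 of 8 held ACATTCC and 0 of 8 held CATTCCA. Over all 21045 genes with a 3′ UTR, 10.1% held ACATTCC and 11.8% held CATTCCA. A match of 6 bases, held by 29.5% of all genes, occurred once among the 8, in Tnnc1, at bases 135 to 140 of its 192-base 3′ UTR. The capitals mark it in its surroundings.
Tnnc1 6-base match: actttctctcccCATTCCtgtcctggggaa
A letter match is a description, not a site of action, and the troponin UTRs were short.

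Upstream sequence was in the RefSeq promoter table for 6 of the 8 genes (8 start sites, GRCm38.p6), and not for Tnni2 and Tnnt3. In the 250 bases before each start, 4 motifs known from muscle promoters were searched: the E-box CANNTG, bound by MyoD family factors, with CAGCTG as its special case, the M-CAT element CATTCC on both strands, bound by TEAD factors, the MEF2 site and the CArG box bound by SRF. TATAAA was searched on the gene's strand. The letters of M-CAT are also those of the 6-base seed match. Shown are the first windows of the 4 members with an M-CAT, CAGCTG or TATAAA match. Capitals mark E-boxes, M-CAT letters on either strand and the TATA letters.
Tnnc1, chr14:31208062-31208311, + strand: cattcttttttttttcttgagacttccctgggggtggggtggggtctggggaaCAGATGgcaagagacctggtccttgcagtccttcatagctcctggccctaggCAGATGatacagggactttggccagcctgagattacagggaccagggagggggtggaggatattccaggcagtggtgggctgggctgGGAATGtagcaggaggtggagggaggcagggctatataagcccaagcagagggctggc
Tnni1, chr1:135799171-135799420, + strand: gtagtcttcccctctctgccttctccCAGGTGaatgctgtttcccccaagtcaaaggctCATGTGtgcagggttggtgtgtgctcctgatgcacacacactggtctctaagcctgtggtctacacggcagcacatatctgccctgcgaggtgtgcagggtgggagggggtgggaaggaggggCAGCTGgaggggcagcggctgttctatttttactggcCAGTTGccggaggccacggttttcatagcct
Tnnt1, chr7:4515976-4516225, - strand: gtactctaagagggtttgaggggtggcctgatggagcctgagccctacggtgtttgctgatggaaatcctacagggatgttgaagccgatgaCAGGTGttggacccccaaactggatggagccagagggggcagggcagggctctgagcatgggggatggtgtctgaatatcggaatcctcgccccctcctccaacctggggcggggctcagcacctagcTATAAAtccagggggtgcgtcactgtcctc
Tnnt2, chr1:135836084-135836333, + strand: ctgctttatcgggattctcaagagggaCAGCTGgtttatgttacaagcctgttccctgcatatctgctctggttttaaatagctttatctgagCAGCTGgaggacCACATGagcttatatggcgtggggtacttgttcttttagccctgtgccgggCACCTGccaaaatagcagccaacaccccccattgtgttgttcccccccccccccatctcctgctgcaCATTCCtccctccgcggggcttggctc
Tnnt2 had 2 CAGCTG boxes, 223 and 157 bases before its start, and CATTCC 27 bases before it, at the first of its 2 starts. Tnnc1 had GGAATG starting 58 bases before its start, and Tnni1 had CAGCTG 68 bases before its first start. In Tnnt1, TATAAA began 30 bases before the start. Of 32851 windows of the same length in the table, 66.2% held CANNTG, 13% CAGCTG, 12.6% CATTCC on either strand and 7.59% TATAAA. A MEF2 site was held by 2.92% and a CArG box by 1.47%, and neither was found in the 8 troponin windows. These are letter matches, and no binding was measured.

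Depth was 22642563 to 56585952 fragments per library. FPKM (fragments per kilobase of gene and per fixed number of mapped fragments) came out as whole fragments for 100% of values, within 0.01 fragment, so each value is given with its fragments where they are few. A value of 3 fragments or fewer was treated as the detection floor, which covers counting error only. Mature microRNAs are not seen in such libraries. The transcript that hosts Mir206, listed as mmu-mir-133b, ranged from 59 to 608 fragments among control DM3 libraries, from 14 to 152 among tKO DM3 libraries, from 0 to 4 in control GM, and was at 0 in tKO GM. Skeletal muscle markers were present in DM3 and 7 of 8 were tested and rose in both genotypes (limma, adjusted p under 0.05), the median log2 change being 3.40 in control and 3.51 in tKO cells. Myod1, Myog, Ckm and Tmem8c were under 0.2 FPKM on average in both GM groups and entered the test through DM3, and 23.2% and 24.9% of all tested genes were called higher. Of 10 cardiomyocyte markers, 7 were under 0.1 FPKM in 3 groups and 6 in tKO GM, and their sum ran from 17.1 to 36.7 FPKM over the 16 libraries. Hand2 was at 0 in every group and Myh6, Nppa, Tbx5 and Mybpc3 stayed at or under 0.0424 FPKM on average, while Nkx2-5 and Gata4 stood at 7.46 to 16.1 FPKM in the 4 groups. Myl7 averaged 0.669 FPKM in control GM and 2.74 in tKO GM, Nppb 0.0190 and 0.759, and Ryr2 0.622 in control DM3 and 0.109 in tKO DM3. Endothelial markers summed to at most 0.495 FPKM and adipocyte markers to at most 11.6, mostly Fabp4. Smooth muscle markers summed to 41.2 to 440 FPKM with Des among them, while Myh11 averaged 0.0959 or less. In bulk RNA, fewer muscle cells and less RNA per muscle cell cannot be told apart.

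In growth medium the cardiac and slow/cardiac genes led. Tnnt2 had the highest mean, at 4.10 ± 0.539 FPKM in control GM (SD, n = 4), against 9.20 ± 3.87 in tKO GM. Tnnc1 followed with 3.17 ± 1.07 and 3.85 ± 0.816 FPKM. The other 6 genes had means of 0.628 FPKM or less. Differentiation reordered the family: in control DM3 the order was Tnnt3 at 218 ± 30.9 FPKM, Tnnt1 at 74.2 ± 12.8, Tnni2 at 59.8 ± 10.1, Tnnc1 at 36.6 ± 9.76, Tnnt2 at 15.9 ± 2.64, Tnni1 at 10.1 ± 5.12, Tnni3 at 0.561 ± 0.170 and Tnnc2 at 0. FPKM is per gene length, so this order rests on the lengths used. They ran from 700 bases for Tnnc2 to 2153 for Tnni1 and 3330 for Tnnt2, and other lengths were not tried. Tnnt3 stood clear of Tnnt1 in control DM3, and Tnnc1 of Tnnt2. The ranges of Tnnt1 and Tnni2, of Tnni2 and Tnnc1, and of Tnnt2 and Tnni1 overlapped across libraries, although within each of the 4 control DM3 libraries Tnni2 exceeded Tnnc1 and Tnnt2 exceeded Tnni1. tKO DM3 had the same order of means with wider spreads. There the ranges of Tnnt3 and Tnnt1 overlapped too, as did those of Tnnc1 (13.8 to 105 FPKM) and Tnnt2 (11.4 to 48.0).

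**Figure D1:**
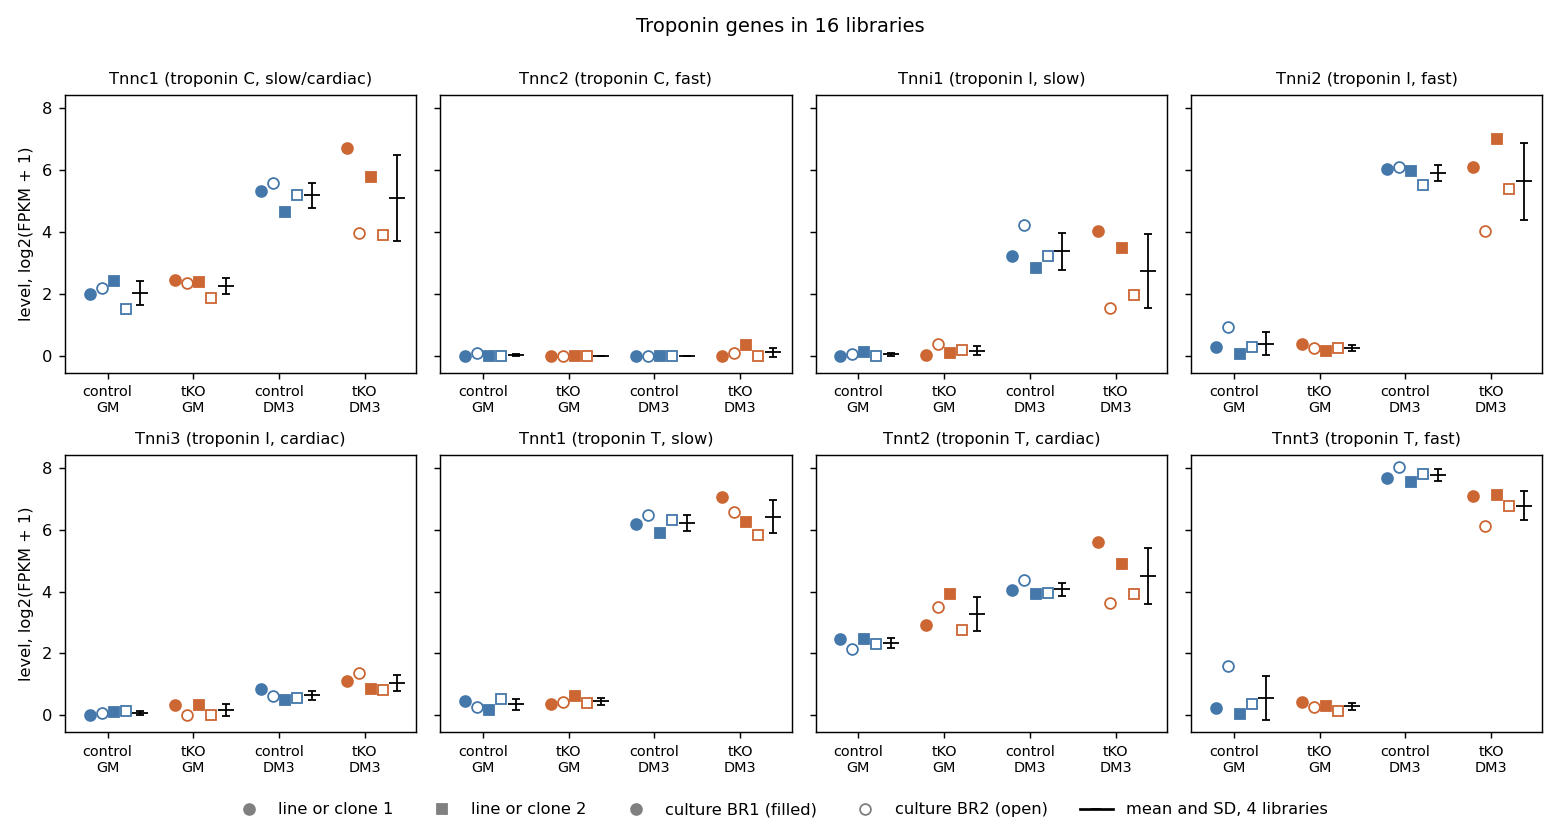
Levels of the 8 troponin genes as log2(FPKM + 1) on the vertical axis, 1 point per library in 4 groups, with shape for the line or clone, filling for the culture and a black bar for mean and SD of 4 libraries. Tnnt3, Tnnt1, Tnni2, Tnnc1 and Tnni1 are high in DM3, Tnnc2 lies near 0 in all 16 libraries, and the open tKO DM3 points of Tnnc1, Tnni1 and Tnni2 lie below the filled ones.

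Differentiation raised all 6 genes that entered the test, in both genotypes (limma on log2(FPKM + 1), adjusted p under 0.05). They stayed called under each alternative that tested them, except Tnnt2 in tKO cells within the BR2 cultures alone. The background was 23.2% of all 11832 tested genes called higher in control cells and 24.9% in tKO cells. The count of 6 carries little by itself, since Tnni1, Tnni2 and Tnnt1 were under 0.5 FPKM in both GM groups and entered the test through their DM3 values. Without the filter on low values, 7 of 8 were called higher in each genotype, Tnni3 being added. All 6 had every control DM3 library above every control GM library (24.5% of tested genes did so), and 5 of 6 did in tKO cells (19.3%), Tnnt2 being the exception.

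Tnnc1, the slow and cardiac troponin C, read 2.94, 3.57, 4.36 and 1.83 FPKM in control GM (line or clone 1 BR1 and BR2, then line or clone 2 BR1 and BR2, the order used throughout) and 39.2, 47.4, 23.9 and 35.8 in control DM3. In tKO cells it went from 4.49, 4.04, 4.20 and 2.66 FPKM in GM to 105, 14.8, 54.0 and 13.8 in DM3. The stages did not overlap in either genotype, and the tKO DM3 cultures split by number, BR1 high and BR2 low. The mean ratio was 11.5-fold in control and 12.2-fold in tKO cells, and the log2 differences were 3.17 ± 0.472 and 2.83 ± 0.472 (SE; limma adjusted p = 2.71e-05 and 7.80e-05).

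Tnnc2, the fast troponin C, was nearly absent from the table. It was at 0 fragments in 13 of 16 libraries, at 1 in 2 others and at 5 in clone 2 BR1 of tKO DM3. Only that library, at 0.258 FPKM, exceeded the floor, and in the fit without a filter Tnnc2 was called in no comparison (limma). Of the 800 exonic bases of Tnnc2, 592 (74.0%) coincide with exons of Ube2c on the opposite strand. Ube2c, a ubiquitin-conjugating enzyme of mitosis, averaged 50.7 FPKM in control GM, 51.1 in tKO GM, 27.8 in control DM3 and 18.7 in tKO DM3. Whether counting used the strand or set aside reads shared by overlapping genes is not given in the sources used here, so the near absence of Tnnc2 is a property of the deposited values and its relation to the overlap was not tested.

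Tnni1, the slow troponin I, was at 0 to 6 fragments in control GM and 1 to 14 in tKO GM. In control DM3 it read 8.33, 17.6, 6.10 and 8.27 FPKM, and in tKO DM3 15.2, 1.89, 10.2 and 2.87. Its lowest DM3 library, clone 1 BR2, still had 117 fragments. The log2 difference was 3.33 ± 0.418 (SE) in control and 2.58 ± 0.418 in tKO libraries, with limma adjusted p = 4.97e-06 and 5.89e-05.

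Tnni2, the fast troponin I, read 64.3, 68.2, 61.4 and 45.3 FPKM in control DM3, against 0.0331 to 0.899 in control GM. In tKO DM3 it read 67.3, 15.5, 129 and 40.7 FPKM, against 0.107 to 0.302 in tKO GM. The tKO values spanned a far wider range than the control values, while no DM3 library came near GM. The log2 difference was 5.53 ± 0.417 (SE) in control and 5.38 ± 0.417 in tKO libraries, with limma adjusted p = 2.58e-08 and 3.40e-08.

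Tnni3, the cardiac troponin I, was low throughout. Control GM libraries had 0 to 3 fragments and tKO GM libraries 0 to 7. In control DM3 it read 0.804, 0.543, 0.413 and 0.485 FPKM, and the tKO DM3 libraries read 1.16, 1.56, 0.791 and 0.740. The genotypes overlapped, since the highest control library exceeded the 2 clone 2 libraries. With a mean of 0.451 FPKM over 16 libraries it missed the filter. In the fit without a filter it was higher in DM3 by 0.56 ± 0.128 (SE) in control and 0.86 ± 0.128 in tKO libraries, with limma adjusted p = 0.00288 and 8.24e-05. Its 3′ neighbour Tnnt1 lies 1922 bases away on the same strand, and 86 exonic bases (4.2%) are common to Tnni3 and the upstream gene Dnaaf3, which averaged 0.535 FPKM in DM3 of control cells and 1.49 in DM3 of tKO cells. The part of these neighbours in the Tnni3 values was not tested.

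Tnnt1, the slow troponin T, rose from 38 and 45 fragments in total over control GM and tKO GM. In control DM3 it read 71.2, 88.5, 58.2 and 79.0 FPKM, and in tKO DM3 132, 94.3, 75.9 and 55.4. The mean ratio of DM3 to GM was 266-fold in control and 244-fold in tKO cells. Its log2 differences, 5.87 ± 0.202 and 5.98 ± 0.202 (SE), had the smallest standard error of the 6 (limma adjusted p = 3.17e-12 and 3.51e-12).

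Tnnt2, the cardiac troponin T, had the smallest differences of the 6. It read 4.48, 3.40, 4.57 and 3.98 FPKM in control GM and 15.4, 19.8, 14 and 14.5 in control DM3. In tKO cells it read 6.63, 10.2, 14.2 and 5.72 FPKM in GM and 48.0, 11.4, 28.6 and 14 in DM3. The control stages were clear of each other, but in tKO cells the 2 BR2 libraries of DM3 lay below the highest GM library. The ratio of means was 3.88-fold in control and 2.77-fold in tKO cells, with log2 differences of 1.72 ± 0.340 and 1.24 ± 0.340 (SE; limma adjusted p = 0.000369 and 0.00495). Within BR2 alone, the DM3 against GM difference of Tnnt2 in tKO cells did not pass, and 5 of 6 genes were called higher there, by a fit added after seeing the data and described with the cultures.

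Tnnt3, the fast troponin T, changed most. In control DM3 it read 204, 259, 187 and 223 FPKM, and in control GM 0.186, 2.01, 0.0275 and 0.285. In tKO DM3 it read 135, 69.2, 140 and 108 FPKM, and in tKO GM 0.344, 0.205, 0.236 and 0.0902. Every DM3 library lay far above every GM library. The log2 difference was 7.21 ± 0.274 (SE) in control and 6.50 ± 0.274 in tKO libraries (limma, adjusted p of 1.18e-11 and 5.49e-11). Line 1 BR2 of control GM, with 54 fragments, stood apart from the other GM libraries, which had 1 to 11.

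**Figure D2:**
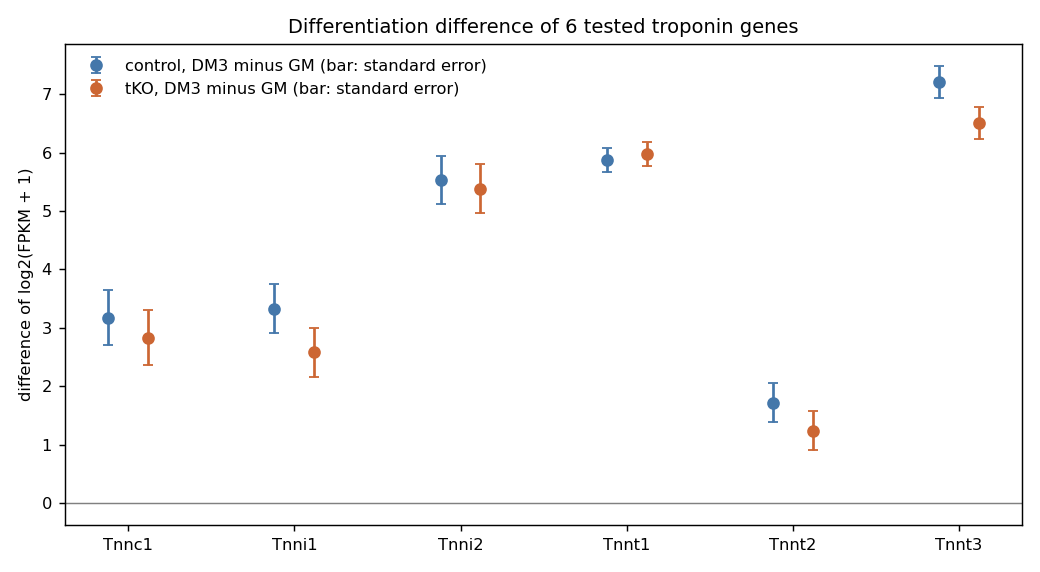
Difference of log2(FPKM + 1) between DM3 and GM on the vertical axis for the 6 tested troponin genes, with standard errors, in control cells and tKO cells. Tnnt3 has the largest differences (7.21 and 6.50) and Tnnt2 the smallest (1.72 and 1.24).

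The rise itself was compared between genotypes by the genotype by stage interaction. No troponin gene was called (limma), against 0.254% of all tested genes called in either direction. An unadjusted p under 0.05 was held by 0 of 6, and by 1278 of all 11832 tested genes. With voom on the fragment numbers the count was also 0. The interaction estimates ran from -0.74 for Tnni1 to 0.11 for Tnnt1, with standard errors of 0.285 to 0.667 and adjusted p of 0.527 to 0.952. The estimate for Tnnt3 was -0.71 ± 0.388 (SE; limma adjusted p = 0.527).

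In growth medium, no troponin gene was called different between tKO and control cells (limma). The background was 0.549% of tested genes called higher in tKO cells and 1.51% called lower. Tnnt2 alone of the 6 had an unadjusted p under 0.05, as did 2076 of all 11832 tested genes, and voom called 0 troponin genes. Tnnt2 was also the only 1 of 6 whose groups did not overlap (14% of tested genes did not overlap in either direction), since the lowest tKO GM library, at 5.72 FPKM, exceeded the highest control GM library, at 4.57. Its mean was 2.24-fold higher in tKO GM, a log2 difference of 0.93 ± 0.340 (SE) with a limma adjusted p of 0.163, between 0.0342 and 0.957 over the alternatives. It was called with the averages of each line as units, the lowest of that range. Of 10 cardiomyocyte markers, 3 were tested between genotypes in GM and none was called (limma). Among these, Myl7 stood at 2.74 ± 2.91 FPKM in tKO GM against 0.669 ± 0.590 in control GM (SD, n = 4; limma adjusted p = 0.387). The untested Nppb also had a higher mean in tKO GM, where its libraries ran from 0.0408 to 2.66 FPKM. Ryr2 and Tbx5 had lower means there, at 0.0256 against 0.0773 and 0.0028 against 0.0082 FPKM. The part of these markers in the Tnnt2 values was not tested. Among other thin filament genes in GM, Tpm1, an alpha-tropomyosin to which troponin T binds, was called higher in tKO cells, at 676 ± 151 against 379 ± 32.8 FPKM (SD, n = 4; log2 difference 0.81, limma adjusted p = 0.0044). Acta1, skeletal alpha-actin, stood at 31.3 ± 28.1 against 8.48 ± 0.747 FPKM and was not called (limma adjusted p = 0.221).

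In DM3, again no troponin gene was called between genotypes by the group-means model (limma), against 2.02% of tested genes called higher in tKO cells and 1.36% called lower. Only Tnnt3 of the 6 had an unadjusted p under 0.05, as did 1990 of all 11832 tested genes, and voom called Tnnt3 lower. Tnnt3 was the only 1 of 6 without overlap (8.52% of tested genes in either direction): the highest tKO DM3 library read 140 FPKM and the lowest control DM3 library 187. The tKO mean was 113 ± 32.5 FPKM against 218 ± 30.9 (SD, n = 4), a ratio of 0.517. The log2 difference was -0.99 ± 0.274 (SE) with a limma adjusted p of 0.061, so it missed the threshold. Over 32 alternatives the difference stayed between -1.16 and -0.77 and the adjusted p between 0.00821 and 0.400, with 5 of the 32 passing.

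The lowest of these p came without line 1 BR2 of control GM, the library with 54 Tnnt3 fragments, which enters the common estimate of the spread but not the difference. The call was also made without clone 1 BR1 (limma adjusted p = 0.0418) or without clone 2 BR1 of tKO DM3 (limma adjusted p = 0.0423), and when BR numbers were blocked stage by stage (limma adjusted p = 0.048). It was further from passing with a pseudocount of 0.1 (limma adjusted p = 0.400) and after rescaling to TPM (limma adjusted p = 0.206). Tnnt3 was lower in both clones in each culture: in BR1 the clones read 135 and 140 FPKM against 204 and 187 in the control lines, and in BR2 69.2 and 108 against 259 and 223.

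The other 5 tested genes had pooled DM3 genotype differences of -0.62 (Tnni1), -0.28 (Tnni2), -0.10 (Tnnc1), 0.21 (Tnnt1) and 0.44 (Tnnt2), with adjusted p of 0.479 to 0.945 (limma). Their standard errors, 0.202 to 0.472, leave room for differences of that size either way. Those of Tnnc1, Tnni2 and Tnnt1 changed sign with single lines or libraries left out. Tnni3, in the fit without a filter, had a difference of 0.39 ± 0.128 (SE; limma adjusted p = 0.172), its means being 1.06 ± 0.382 FPKM in tKO DM3 and 0.561 ± 0.170 in control DM3 (SD, n = 4).

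The make-up of each subunit was then read as the share of each gene in the summed FPKM of its subunit. Such shares rest on the gene lengths used, in troponin T 3330 bases for Tnnt2, 1059 for Tnnt1 and 1079 for Tnnt3. In the deposited values, troponin C was Tnnc1 to 98.4% or more in every library. Since 74.0% of the exonic bases of Tnnc2 coincide with Ube2c and the counting rule is not given, the true share of Tnnc2 is not known. Troponin I in DM3 was mostly the fast Tnni2, 85.2% ± 4.93 in control and 86.5% ± 6.33 in tKO cells (SD, n = 4). The slow Tnni1 took 14% ± 4.98 and 10.5% ± 5.36, with ranges that overlapped between genotypes. Tnni3 took 0.565% to 1.67% of troponin I in 7 of the DM3 libraries and 8.26% in clone 1 BR2, the library with the least Tnni2.

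Troponin T changed its make-up more. In GM it was mainly Tnnt2, 82.8% ± 15.6 in control and 93.7% ± 1.70 in tKO cells. In control DM3 the fast Tnnt3 made up 70.2%, 70.5%, 72.2% and 70.5%, the slow Tnnt1 24.5%, 24.1%, 22.4% and 24.9%, and the cardiac Tnnt2 5.31%, 5.38%, 5.40% and 4.57%. These 4 libraries were nearly alike, although their summed troponin T ran from 260 to 367 FPKM. In tKO DM3, Tnnt3 made up 42.8%, 39.6%, 57.2% and 60.8%. The slow Tnnt1 took 41.9%, 53.9%, 31.0% and 31.3%, and Tnnt2 took 15.2%, 6.49%, 11.7% and 7.92%. For each of the 3 genes the tKO libraries lay wholly outside the control range, Tnnt3 below it and Tnnt1 and Tnnt2 above it. The shares sum to 100%, so these are not 3 separate observations, and they are given without a test. In FPKM, only Tnnt3 of the 3 was without overlap between genotypes in DM3 (8.52% of all tested genes in either direction). Its difference had a limma adjusted p of 0.061.

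The same shows in the ratio of slow to fast troponin T. Tnnt1 over Tnnt3 was 0.349, 0.342, 0.311 and 0.354 in control DM3 and 0.979, 1.36, 0.543 and 0.515 in tKO DM3. The clones differed: clone 1 had the 2 highest ratios, and in its BR2 library Tnnt1 exceeded Tnnt3. The corresponding ratio for troponin I, Tnni1 over Tnni2, was 0.130, 0.258, 0.0994 and 0.182 in control DM3 and 0.226, 0.122, 0.0790 and 0.0705 in tKO DM3, so its groups overlapped.

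**Figure D3:**
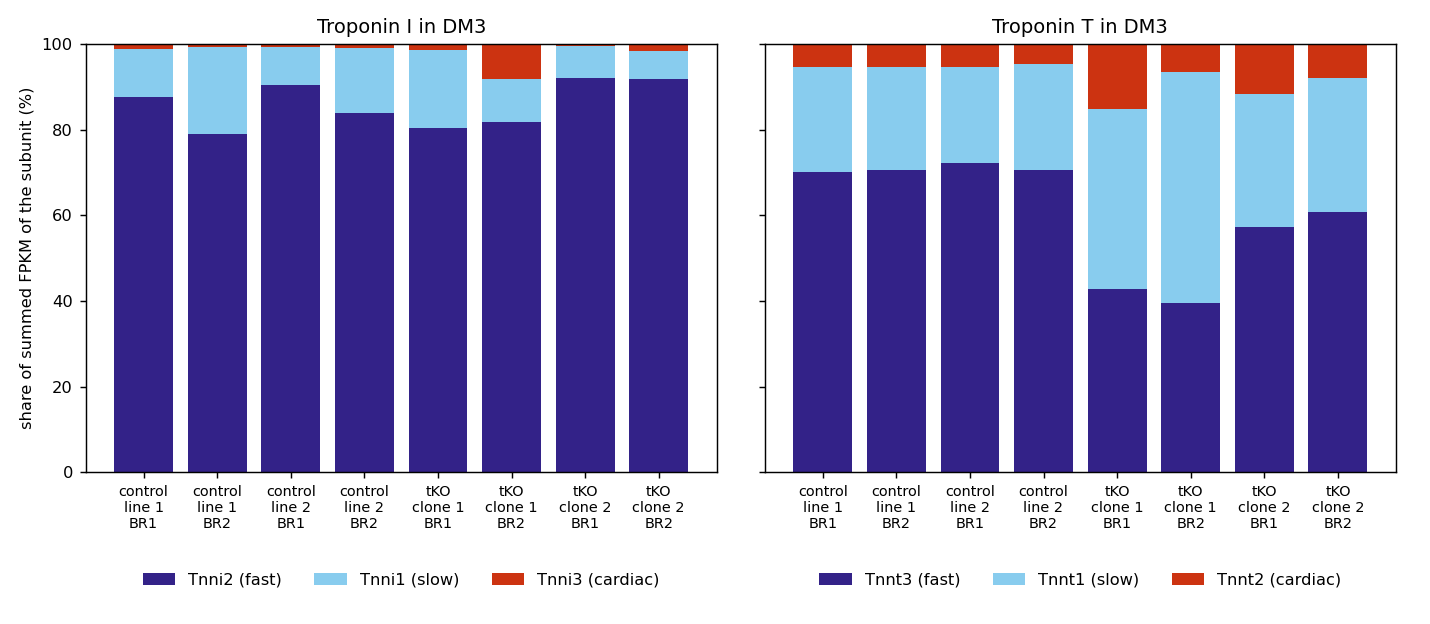
Share of each gene in the summed FPKM of troponin I (left) and troponin T (right), in percent on the vertical axis, for each of the 8 DM3 libraries. The Tnnt3 share is 70.2% to 72.2% in the 4 control libraries and 39.6% to 60.8% in the 4 tKO libraries, while the Tnni2 shares of the genotypes overlap.

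Culture number moved with several troponin genes in tKO DM3. A model with 8 means, 1 for each group and culture number with 2 libraries behind it, was added after seeing the data. The labels do not say whether a number marks a shared day across lines. In tKO DM3, 4 of 6 genes were lower in BR2 than in BR1 (limma, adjusted p under 0.05), against 1.58% of all tested genes. The differences were -2.32 ± 0.335 (SE) for Tnnc1, -2.01 ± 0.288 for Tnni1, -1.85 ± 0.401 for Tnni2 and -1.49 ± 0.332 for Tnnt2, on the log2 scale (limma adjusted p = 0.0121, 0.0117, 0.0243 and 0.0258). Tnnt3 and Tnnt1 had -0.67 ± 0.309 and -0.47 ± 0.274 and were not called. In control DM3 no troponin gene was called between the cultures (0.33% of tested genes were lower in BR2), and voom called 0. An unadjusted p under 0.05 was held by 1 of 6 there, and by 1635 of all 11832 tested genes. The count of 4 rested on clone 1 BR2: without that library it was 0, and without clone 2 BR1 it was 5. With 2 libraries behind each mean, leaving 1 out means that the lone library is taken to vary as the others do.

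The test of the difference itself, culture by genotype in DM3, called 0 troponin genes (limma), against 0.00845% of all tested genes. Unadjusted, 5 of 6 had a p under 0.05, as did 1436 of all 11832 tested genes, and voom called 0 troponin genes. The largest estimates were -2.74 ± 0.473 (SE) for Tnnc1 and -2.70 ± 0.407 for Tnni1 (limma adjusted p = 0.157 and 0.0917). Leaving out clone 2 BR1 brought the count to 4, with Tnnc1, Tnni1, Tnnt1 and Tnnt2 called, and leaving out control line 2 BR2 or clone 2 BR2 brought it to 1, Tnni1 each time.

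Within BR1, tKO against control DM3 called 0 of 6 (limma; 0.566% of tested genes were higher), and voom called 0. An unadjusted p under 0.05 was held by 4 of 6, and by 1579 of all 11832 tested genes. The estimates for BR1 were positive for 5 genes, led by Tnnt2 at 1.28 ± 0.332 and Tnnc1 at 1.27 ± 0.335 (SE), and negative for Tnnt3 at -0.50 ± 0.309. Without clone 2 BR1, Tnnc1, Tnnt1 and Tnnt2 were called in BR1. Within BR2, 3 of 6 were called lower in tKO cells, against 1.93% of tested genes: Tnni1 by -1.97 ± 0.288, Tnnt3 by -1.47 ± 0.309 and Tnnc1 by -1.47 ± 0.335 (SE; limma adjusted p = 0.00409, 0.0236 and 0.0321). That count was 0 without clone 1 BR2 and 1 without control line 1 BR2, and the call of Tnnt3 was lost with pseudocount 0.1 and with TPM, that of Tnnc1 without the filter. Tnnt3 had a negative estimate in both cultures, unlike Tnnc1, Tnni1, Tnni2, Tnnt1 and Tnnt2, whose estimates changed sign.

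**Figure D4:**
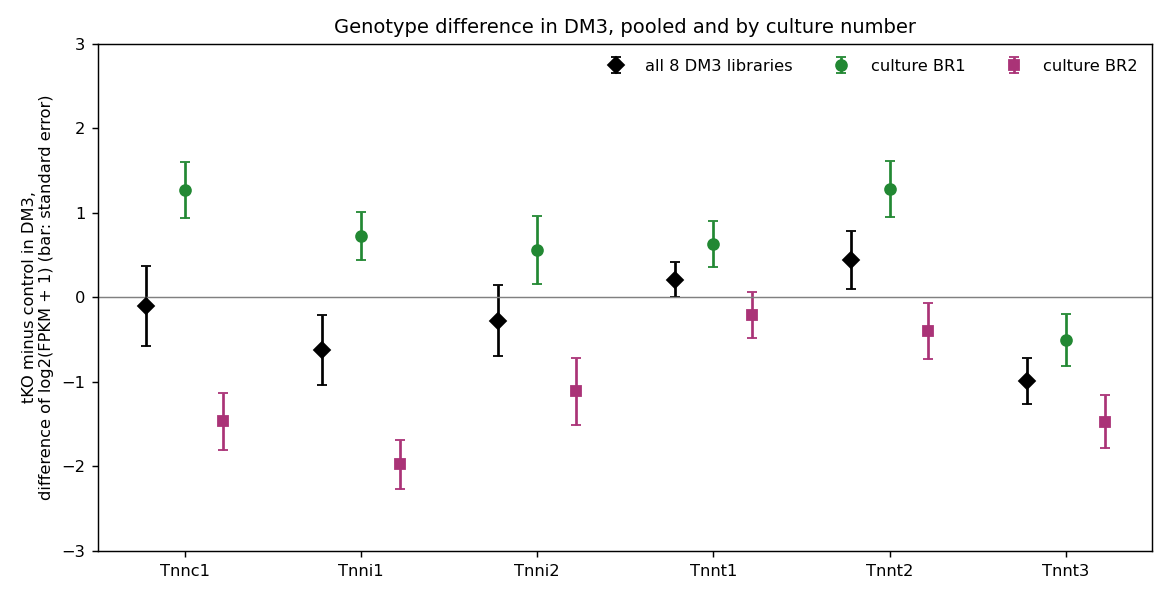
Difference of log2(FPKM + 1) between tKO and control cells in DM3 on the vertical axis, with standard errors, for the 8 DM3 libraries together and within cultures BR1 and BR2. Estimates are positive in BR1 and negative in BR2 for 5 genes, while Tnnt3 lies below 0 in both (-0.50 and -1.47).

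The sum of the muscle markers moved with the same libraries. Most of it was Acta1, with means of 457 and 404 FPKM in control and tKO DM3, and Des, with 339 and 175. For Myog and Myod1 the lowest tKO DM3 library, at 3.89 and 1.61 FPKM, exceeded the lowest control DM3 library, at 2.35 and 0.746. Whether these genes moved with the culture number was not looked at. The summed FPKM of 8 skeletal muscle markers, Acta1 included, was 1060, 1100, 808 and 730 in control DM3 and 1160, 429, 961 and 353 in tKO DM3, so both BR2 clones lay below every control library. The summed proliferation markers were 99.2, 78.3, 92.4 and 81.4 FPKM in control DM3 and 35.5, 56.0, 110 and 76.7 in tKO DM3. None of the 7 tested genes of the muscle list and none of the 5 of the proliferation list was called between genotypes in DM3 (limma). Summed fibroblast markers ran from 49.1 to 75.3 FPKM over the control DM3 libraries and from 7.92 to 24.8 over those of tKO DM3. Of the 3 tested, 2 were called lower (limma), Dcn and Pdgfrl, against 1.36% of all tested genes. These held most of the control sum, with control DM3 means of 30.1 and 28.2 FPKM. Pdgfra had a lower mean and was not called. The untested Dpt and Lum had higher means in tKO DM3, at 0.878 against 0.588 and 0.154 against 0.0334 FPKM. Tcf21 was at 0 in both DM3 groups. The part of these in the troponin differences was not tested.

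Other genes of the thin filament and of fibre types were counted from lists. Of 12 thin filament partners, 10 were tested. In control cells 5 were higher and 3 lower in DM3, against 2743 higher and 4529 lower of all 11832 tested genes. Their median log2 change was 0.81, against -0.15 over all tested genes. In tKO cells 6 were higher and 3 lower, against 2951 and 4257, with a median of 0.81 against -0.12. Acta1 rose most, by 5.54 in control and 3.61 in tKO cells, and Tpm3, a slow-type tropomyosin also found in non-muscle cells, changed by -2.06 and -1.44 (limma adjusted p from 1.45e-09 to 5.09e-05). Tpm1, the most abundant of them over the 16 libraries but behind Acta1 and Tpm2 in DM3, changed by -0.71 and -1.66 in DM3 and was called lower in both. Neb, Lmod2, Lmod3 and Tmod1 were under 0.1 FPKM in both GM groups and entered the test through DM3. Between genotypes in DM3, 1 of the 10 was called higher and 0 lower, against 2.02% and 1.36% of all tested genes. The gene called was Tpm3, at 93.8 ± 15.6 FPKM in tKO against 59.0 ± 5.28 in control cells (SD, n = 4; log2 difference 0.65, limma adjusted p = 0.00479).

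Of 11 fast fibre genes, 5 were tested and rose in both genotypes, Myl1 and Mylpf, light chains of fast myosin, by 7.60 and 7.29 in control and 7.18 and 7.09 in tKO cells (limma adjusted p from 1.14e-11 to 5.60e-10). Myl1, Atp2a1 and Pvalb were under 0.5 FPKM in both GM groups and entered the test through DM3, so the count of 5 carries little beside the 23.2% and 24.9% of all tested genes called higher. Of the adult fast myosin genes, none of which was tested, Myh2 and Myh4 stayed at or under 0.231 FPKM on average in all groups, while Myh1 averaged 0.0381 and 0.0173 FPKM in control and tKO GM and 0.450 and 1.34 in control and tKO DM3. Between genotypes in DM3, 1 of the 5 was called lower, against 1.36% of all tested genes. The gene called was Atp2a1, the fast calcium pump of the sarcoplasmic reticulum, at 15.2 ± 10.1 FPKM in tKO against 54.2 ± 12.4 in control cells (SD, n = 4; log2 difference -1.93, limma adjusted p = 0.0014). The median of the 5 was -0.66, against 0.0077 over all tested genes. Only 2 of 8 slow fibre genes were tested. Among the others, Myh7, Myl2 and Myl3 averaged 0.1 FPKM or less in each group. Mybpc1 went from 0.0244 to 0.265 FPKM in control and from 0.0154 to 1.15 in tKO cells, and Myoz2 from 0.0157 to 0.880 and from 0.0396 to 0.781. Casq2, the cardiac and slow calsequestrin, rose by 2.39 and 2.14 in control and tKO cells, and Atp2a2, the slow calcium pump, was not called in any of the 4 group comparisons (limma).

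Of 20 factors known at troponin or fibre type genes, 15 were tested. In control cells 8 were higher and 4 lower in DM3, against 2743 higher and 4529 lower of all 11832 tested genes. In tKO cells 8 were higher and 3 lower, against 2951 and 4257. The median log2 changes were 0.48 and 0.54, against -0.15 and -0.12 over all tested genes. Myog, which drives the entry into differentiation, rose by 2.66 and 3.50, and Myod1, which commits cells to the muscle lineage, by 1.47 and 1.68. Srf, which binds CArG boxes, had -0.96 and -1.21, and Tead1, which binds M-CAT elements, -0.60 and -0.86, and both were called lower. None of the 15 was called between genotypes in either stage (limma).

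Troponin I and troponin T genes sit in neighbouring pairs, and levels within a pair were not alike. Tnni2 and Tnnt3 lie 54425 bases apart on chromosome 7 with Lsp1 between them, which stayed at 42.2 to 62.4 FPKM on average in all 4 groups while both troponins rose from under 1 FPKM. Tnni1 and Tnnt2 lie 25364 bases apart on chromosome 1 with Lad1 between them, at 0.187 FPKM or less in every library. In GM that pair had Tnnt2 at 4.10 FPKM and Tnni1 at 0.0300 in control cells. Tnnt1 and Tnni3 lie 1922 bases apart on chromosome 7, where control DM3 had 74.2 FPKM of Tnnt1 and 0.561 of Tnni3. On GRCm38, Tnnc1 (ENSMUSG00000091898, + strand) spans 31208312 to 31211729 on chromosome 14 and Tnnc2 (ENSMUSG00000017300, - strand) spans 164777161 to 164779967 on chromosome 2. Tnni1 (ENSMUSG00000026418, + strand) spans 135779434 to 135810989 on chromosome 1 and Tnnt2 (ENSMUSG00000026414, + strand) spans 135836354 to 135852260 on chromosome 1. Tnnt1 (ENSMUSG00000064179, - strand) spans 4504570 to 4516382 on chromosome 7 and Tnni3 (ENSMUSG00000035458, - strand) spans 4518305 to 4524229 on chromosome 7. Tnni2 (ENSMUSG00000031097, + strand) spans 142441808 to 142444410 on chromosome 7 and Tnnt3 (ENSMUSG00000061723, + strand) spans 142498836 to 142516009 on chromosome 7.

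The genes most like each troponin were found among 10924 other protein-coding genes by Pearson's r of log2(FPKM + 1) over the 16 libraries, which share the stage difference. Tnnt3 was closest to Myl1 (r = 0.998), Tnni2 to Mylpf (0.994) and Tnnt1 to Chrng, the fetal subunit of the acetylcholine receptor (0.998). Tnnc1 was closest to Stac3, which couples excitation to calcium release (0.98), and Tnni1 to Tpt1 (0.981). Tnnt2 had a looser best match, Gatsl3 (0.94). Over the 8 DM3 libraries alone, Tnnc1 varied with Tnni1 (r = 0.907) and Tnnt2 (0.889), and Tnni2 with Tnni1 (0.767). Tnnt1 had r = -0.13 with Tnnt3 and -0.059 with Tnni2 there. These describe 8 libraries that share lines and cultures.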

How the data were processed

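The authors deposited 1 table of FPKM values, with 1 column per library for 16 libraries, gene lengths and coordinates, and no pooling of replicates. STAR, DESeq and build mm10 are named in the submitters' processing notes, without versions; the counting program, its use of strand and the annotation release are not given in the sources used here. Libraries were grouped by genotype and stage from their titles. Replicates are cultures and lines as labelled, so p-values measure the spread between these libraries, which come from 2 lines per genotype.

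Fragment numbers were recovered from the steps of the FPKM values (100% whole within 0.01; 22642563 to 56585952 per library). Library pairs of a group differed by more than sampling noise (chi-square per degree of freedom 19.3 to 235.9 over 24 pairs). Genes with a mean of at least 0.5 FPKM over 16 libraries were kept (11832 of 35275). limma 3.58.1 (R 4.3.3; empirical Bayes, trend and robust) fitted log2(FPKM + 1) with 1 mean per group to the 16 libraries, with Benjamini-Hochberg adjustment over all tested genes and a call at adjusted p under 0.05. The log2(FPKM + 1) scale understates the change of low genes. Tested on simulated data for tKO DM3 against control DM3 (11832 genes, 200 changed), the fit recovered 88% of 2-fold and 99% of 4-fold changes, with 10 false calls (5.08% of calls). The simulated noise was independent between libraries, with the same spread of a gene in all 4 groups. Changes were put only into genes with a mean log2(FPKM + 1) over 2. These rates therefore do not cover low genes, spreads that differ between groups, or deviations shared by lines or cultures. Alternatives were pseudocount 0.1, no filter or one of 5 FPKM, TPM, median-of-ratios scaling, other moderation, fewer libraries, replicate blocks, line as random effect or unit, voom, and leaving out each library or line. Python 3.11.15, numpy 2.4.6, pandas 2.3.3 and matplotlib 3.10.9 were used.

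The members and gene lists were chosen with earlier results of these data known. All 8 members are named. From each list the genes with the largest changes among those called and the most abundant gene are named, except 1 that is not reported here, with others picked after their values were seen (Acta1 in GM, Myh1, Myh2, Myh4, Myh7, Myl2, Myl3, Mybpc1, Myoz2, Srf and Tead1, and genes named for entering a test through DM3). Like genes are the highest Pearson r.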

Additional observations from a re-analysis of the deposited data

Results flagged for a closer look

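In control GM, Tnnt3 in line 1 BR2 read 2.01 FPKM (54 fragments), a single library above the other 3, of which the next had 0.285. It was the only such library among 28 groups of a gene looked at for levels, where chance alone would give some.

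Among shares in DM3, 3 stood apart in the same way. Tnni3 made up 8.26% of troponin I in clone 1 BR2 of tKO DM3, against 1.67% or less in the others. In control DM3, Tnnt2 made up 4.57% of troponin T in line 2 BR2, against 5.31% or more, and Tnnt3 made up 72.2% in line 2 BR1, against 70.5% or less. Chance flags about 1 in 20 groups of 4.

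For 4 genes in DM3, both clones lay above both control lines in BR1 and below both in BR2. Only the troponin genes were looked at for this pattern. The share of all tested genes that have it is not known, so the count says nothing particular about troponins. The differences, tKO minus control on the log2(FPKM + 1) scale, were 1.27 and -1.47 for Tnnc1, 0.73 and -1.97 for Tnni1, 0.56 and -1.11 for Tnni2 and 1.28 and -0.40 for Tnnt2. The difference between the cultures did not pass its test in any of the 4 (limma, culture by genotype, adjusted p = 0.157, 0.0917, 0.372 and 0.358). In GM, Tnni3 showed the same pattern with 0.28 and -0.10, at 0 to 7 fragments per library, and Tnnt3 with 0.22 and -0.78, where line 1 BR2 of control GM weighs. The GM differences of these 2 genes between cultures were not tested.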

How the results depend on the processing

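Counts of troponin genes called for DM3 against GM were 6 in each genotype and lay between 5 (filter of 5 FPKM, which drops Tnni1) and 7 (no filter). For tKO against control in GM the count of 0 became 1, Tnnt2, with line averages as units. For tKO against control in DM3 the count of 0 became 1, Tnnt3, with voom, and 3 within BR2 in the added model. Leaving out single libraries gave 0 to 1 for that comparison, 0 to 5 for BR2 against BR1 in tKO DM3, 0 to 4 for culture by genotype, 0 to 3 for tKO against control in BR1 and 0 to 3 in BR2. In BR2 that count of 3 was 2 with pseudocount 0.1 or TPM (Tnnt3 lost), without a filter (Tnnc1 lost) and with the filter of 5 FPKM (Tnni1 not tested). The culture number as a replicate block left the DM3 count at 0 (Tnnt3 adjusted p = 0.0623, limma), and as a block within each stage it gave 1 (Tnnt3, adjusted p = 0.048). The labels state no pairing. Same-numbered cultures of the genotypes had a mean r of deviations of 0.25 in GM (7 of 8 pairs over 0.1) and 0.187 in DM3 (5 of 8), against -0.249 (0 of 8) and -0.188 (1 of 8) for different numbers. Deviations from a group's mean sum to 0, so the values for different numbers mirror those for the same number and add no separate comparison. Same-numbered pairs shared some deviation on average, but not every such pair passed 0.1, so the libraries were not treated as paired. No other call of a troponin gene changed under either block.

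Signs of uncalled differences turned as follows. For tKO against control in DM3, Tnnc1 (-0.10) became 0.175 without control line 1 and 0.16 without clone 2, and ran from -0.641 to 0.304 without single libraries. Tnni2 (-0.28) became 0.293 without clone 1 and ran from -0.738 to 0.257, and Tnnt1 (0.21) became -0.176 without clone 1. In GM, without control line 1, Tnni2 became 0.0982 and Tnnt3 0.0812, with ranges without single libraries of -0.239 to 0.0539 and -0.451 to 0.0661. In the interaction, Tnnt1 (0.11) became -0.155 with pseudocount 0.1, -0.298 with voom and -0.334 without clone 1, and ran from -0.0987 to 0.316 without single libraries. Tnni2 became 0.483 without clone 1 and ran from -0.611 to 0.383, and Tnnc1 ran from -0.878 to 0.0674. The cause was not tested. With median-of-ratios scaling the median DM3 against GM change of all genes moved from -0.15 to 0.0097 in control and from -0.12 to 0.0064 in tKO cells, and calls of all genes from 2743 higher and 4529 lower to 3611 and 3631, and from 2951 and 4257 to 3571 and 3587. Low GM values rest on few fragments, which depth limits.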
